A study of Mus musculus with 6 samples.

Results

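The 7 transcription factors described here are the blood stem cell heptad: Gata2, Tal1, Lmo2, Lyl1, Runx1, Erg and Fli1. Each was taken from the deposited table by matching its Ensembl identifier, without version, to the mouse symbol. All 7 were found among the 41128 genes of the table, and all 7 reached the minimum mean level of 1 RPM set for testing, as did 13597 genes. RPM are reads after scaling every library to an equal total. The unit of the deposited values is not stated, and they were read as RPM.

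Poly(A) RNA was sequenced from bone marrow cells of C57BL mice given YH250, a small molecule, at 2 mg per kg under the skin, or its vehicle DMSO. Marrow was collected 16 h afterwards in both groups, and cells were sorted as lineage-negative, Sca1+, c-Kit+, CD41-, CD48- and CD150+, the surface profile of long-term repopulating hematopoietic stem cells. Each group had 3 libraries that carry the numbers 1, 2 and 3, but the meaning of a number is not given, nor whether libraries came from separate or pooled mice. The p-values thus reflect the spread of these libraries alone, which may be technical. The submitters' stated expectation was a rise of stemness genes under YH250.

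Heptad factors sit together on regulatory DNA of blood stem and progenitor cells, including elements near their own genes. Gata2 is a zinc finger protein that binds GATA sites, and Tal1 and Lyl1 are basic helix-loop-helix proteins that bind E-boxes as dimers with E proteins. Lmo2 is an adaptor without DNA binding of its own that joins these proteins in complexes with Ldb1. Runx1 binds DNA with its partner Cbfb, and Erg and Fli1 are related ETS factors. Several heptad genes are also active in endothelium, mast cells and the megakaryocyte lineage.

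On GRCm38 (GENCODE M21) the members lie on 6 chromosomes. Gata2 (ENSMUSG00000015053) spans 88193891 to 88207032 on the plus strand of chromosome 6, Tal1 (ENSMUSG00000028717) 115056426 to 115071755 on the plus strand of chromosome 4, and Lmo2 (ENSMUSG00000032698) 103957986 to 103981878 on the plus strand of chromosome 2. Lyl1 (ENSMUSG00000034041) spans 84701457 to 84704715 on the plus strand of chromosome 8. Chromosome 16 carries both Runx1 (ENSMUSG00000022952), at 92601466 to 92826149, and Erg (ENSMUSG00000040732), at 95359169 to 95586593, each on the minus strand. Fli1 (ENSMUSG00000016087) spans 32422204 to 32542861 on the minus strand of chromosome 9. It is not stated whether counting used strand. Lyl1 shares 4 exon bases with Nfix, a gene on the opposite strand at 27.7 to 70.2 RPM, and Runx1 shares 106 exon bases with the antisense transcript Gm26626, which was at 0.522 RPM or below in the 6 libraries.

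RefSeq promoter windows on GRCm38.p6, from 250 bases before to 50 bases after a start site, were matched for 5 of the 7 members (10 windows); none is printed for Lmo2 and Fli1. Both windows of Gata2 are shown because this gene differed most between libraries. Of the 2 windows each of Tal1, which shared the direction of Gata2 between numbers 3 and 1, and Runx1, which did not, the one at the more upstream start is shown. Capitals mark letters of heptad binding motifs on either strand: GATAA for GATA factors, GGAAG for ETS factors, CAGNTG for E-boxes and TGTGGT for Runx1. No 2 matches overlap.
Gata2, distal start, chr6:88193641-88193940, plus strand: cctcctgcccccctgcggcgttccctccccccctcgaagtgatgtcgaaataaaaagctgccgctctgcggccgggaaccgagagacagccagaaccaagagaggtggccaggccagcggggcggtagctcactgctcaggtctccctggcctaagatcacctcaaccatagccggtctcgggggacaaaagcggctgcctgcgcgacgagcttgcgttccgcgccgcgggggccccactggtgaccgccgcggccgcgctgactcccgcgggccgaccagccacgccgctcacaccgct
Gata2, proximal start, chr6:88198414-88198713, plus strand: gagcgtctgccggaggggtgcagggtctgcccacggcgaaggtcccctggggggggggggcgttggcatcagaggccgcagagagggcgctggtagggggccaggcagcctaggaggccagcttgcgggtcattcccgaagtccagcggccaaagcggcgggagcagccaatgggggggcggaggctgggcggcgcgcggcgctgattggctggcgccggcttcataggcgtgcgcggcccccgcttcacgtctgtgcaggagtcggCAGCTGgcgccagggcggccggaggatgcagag
Tal1, distal start, chr4:115056176-115056475, plus strand: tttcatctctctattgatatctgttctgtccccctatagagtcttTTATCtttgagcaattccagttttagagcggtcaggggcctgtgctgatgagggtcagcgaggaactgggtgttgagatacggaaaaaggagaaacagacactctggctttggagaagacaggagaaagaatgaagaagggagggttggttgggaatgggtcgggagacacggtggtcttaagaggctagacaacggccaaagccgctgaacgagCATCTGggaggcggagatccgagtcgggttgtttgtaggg
Runx1, distal start, chr16:92826025-92826324, minus strand: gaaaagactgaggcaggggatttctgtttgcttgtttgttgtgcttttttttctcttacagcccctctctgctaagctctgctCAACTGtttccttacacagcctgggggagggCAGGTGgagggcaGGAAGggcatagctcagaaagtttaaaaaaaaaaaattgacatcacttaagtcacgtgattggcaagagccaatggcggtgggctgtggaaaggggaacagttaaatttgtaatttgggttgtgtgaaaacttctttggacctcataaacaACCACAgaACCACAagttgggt
The distal Gata2 window held none of the 4 motifs and the proximal window 1 E-box. The distal Tal1 window held 1 GATA match and 1 E-box, and the distal Runx1 window held 2 E-boxes, 1 ETS match and 2 Runx matches, both after its start. The other Tal1 window held 2 ETS matches and no other motif, and the other Runx1 window held none of the 4. Among all 32851 windows of the same length, 25.4% hold a GATA match, 71.4% an ETS match, 51.4% an E-box and 16.8% a Runx match, and the corresponding numbers for the 10 member windows were 2, 5, 5 and 1. These matches describe letters only, and no binding was measured. The deposited values are per gene, so transcripts from different start sites could not be told apart.

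In these libraries 1 RPM corresponded to 21.96 to 31.19 reads, and between 475 and 24193 reads stood behind each value of a member. If the values are RPM, reads assigned to genes summed to between 70.0% and 95.9% of each library's total. The shares were highest in both libraries numbered 3. Of the sort markers, Kit was present throughout (130 to 318 RPM), whereas Slamf1, which encodes CD150, ranged from 0.515 to 35.5 RPM and Cd48, which the sort was to exclude, from 10.2 to 258 RPM. Slamf1 had 35.5 and 31.6 RPM in numbers 1 and 4.69 RPM or below in the other 4, while Cd48 was at 10.2 and 13.1 RPM in numbers 1, 31.4 and 66.9 RPM in numbers 2, and 258 and 252 RPM in numbers 3. In numbers 2 and 3 Slamf1 and Cd48 thus went against the sort, but other sort markers did not. Ly6a, which encodes the selected Sca1, had 80.9 and 122 RPM in numbers 1 and 241 and 319 RPM in numbers 3. Itga2b, which encodes the excluded CD41, had 43.7 and 37.4 RPM in numbers 1 and 5.65 and 7.13 RPM in numbers 3. These are transcript levels, and the deposited values hold no surface protein. YH250 2 stood apart by the sum of 8 stromal transcripts, 299 RPM against 17.2 to 65.8 RPM in the other 5 libraries. Most of it came from Cxcl12 (202 RPM) and Lepr (58.2 RPM, against 7.99 RPM or less in the other 5). Pdgfrb and Col1a1 were not highest there, at 8.79 and 0.291 RPM against 12.9 and 0.73 RPM in YH250 3.

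Per kilobase of exon, Lmo2 stood far above the other members, at 291 ± 92.6 RPM per kb (mean ± SD over the 6 libraries, as for all levels per kilobase). Its lowest library (146 RPM per kb) was higher than the highest library of Fli1, which came next at 38.5 ± 7.49 RPM per kb. Fli1 was above Gata2 (19.2 ± 10.3 RPM per kb) in all 6 libraries, although their ranges overlapped. Gata2 and Lyl1 (17.8 ± 3.72 RPM per kb) did not differ beyond their spread, each being the higher in 3 libraries. Erg followed at 15.2 ± 3.74 RPM per kb, below Lyl1 in 5 of 6 libraries. Runx1 and Tal1 were the lowest, at 9.65 ± 2.44 and 8.93 ± 3.26 RPM per kb, and again each was the higher in 3 libraries. Runx1 has the longest annotated exons, and over the length of its longest transcript its level was 19.8 ± 5.0 RPM per kb. By that length Gata2 rose to 29.1 ± 15.6 RPM per kb and Lyl1 stayed at 17.8 RPM per kb, with Runx1 between them. The order of these genes thus depended on the length used.

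No heptad factor passed the test between YH250 and DMSO. With limma on log2(RPM + 1), 0 of 7 members passed an adjusted p of 0.05, as did 0 of the 13597 tested genes (0%). At an unadjusted p under 0.05 limma gave 0 members, against 231 genes (1.7%). The adjusted p was 0.999 for every member, and 0.66 to 0.924 in limma with the replicate number as a block. Of the 7 members, 6 had lower means in YH250, against 48.3% of tested genes, and the median log2 difference of the members was -0.31, against 0.02 over all genes. In bulk RNA, fewer cells of a type and less RNA per cell cannot be told apart, for these and for all values that follow. For no member were the 3 YH250 values all on one side of the 3 DMSO values, an arrangement found in 7.48% of tested genes. Without both libraries numbered 3, 0 genes were called, and the log2 differences were 0.34 for Gata2, -0.27 for Tal1, -0.33 for Lmo2, -0.33 for Lyl1, -0.26 for Runx1, -0.01 for Erg and -0.09 for Fli1. Between the 2 libraries numbered 1 alone, which have no replicate, they were 0.12, -0.29, -0.40, 0.17, -0.49, 0.17 and -0.30 in the same order.

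**Figure D1:**
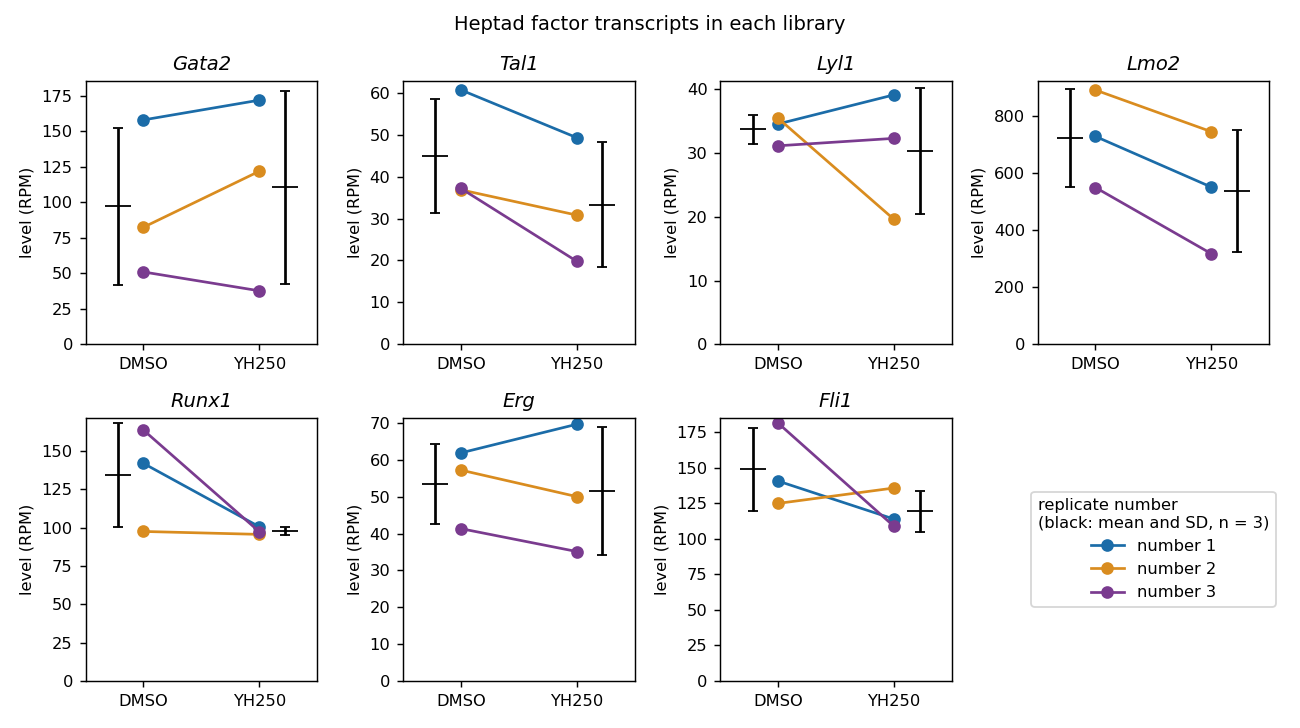
Level in RPM (vertical axes, from 0) of each heptad factor in the DMSO and YH250 libraries, with lines joining libraries of the same number and black marks giving mean and SD (n = 3). The 2 libraries numbered 3 hold the lowest values of Gata2, Lmo2 and Erg within each treatment, and the treatment groups overlap for all 7 genes.

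The GATA factor Gata2 stood at 158, 82.5 and 51.0 RPM in libraries 1, 2 and 3 of DMSO, and at 172, 122 and 37.6 RPM in those of YH250. The ranges of both groups overlapped, with the libraries numbered 1 highest and those numbered 3 lowest. DMSO averaged 97.2 ± 55.1 RPM and YH250 111 ± 68.0 RPM (mean ± SD of 3 libraries), a log2 difference of 0.08 ± 0.61 (SE) with a 95% interval of -1.33 to 1.5. That interval takes in the spread between numbers, and with the replicate number as a block it was -0.38 to 0.55. The difference was 0.12 and 0.56 at numbers 1 and 2 and -0.43 at number 3. Its sign depended on single libraries and on scaling: it was -0.30 without DMSO 3, -0.36 without YH250 1, -0.11 without YH250 2, and -0.01 when each library was rescaled to the sum over its genes.

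Of the helix-loop-helix pair, Tal1 had 60.7, 36.9 and 37.2 RPM under DMSO and 49.3, 30.8 and 19.8 RPM under YH250 (libraries 1, 2 and 3 throughout). The YH250 value was the lower at each number, but YH250 1 lay above DMSO 2 and DMSO 3. Tal1 averaged 44.9 ± 13.7 RPM under DMSO and 33.3 ± 14.9 RPM under YH250, a log2 difference of -0.47 ± 0.37 (95% interval -1.30 to 0.35). With the block the interval of Tal1 was -0.97 to 0.02. Its relative Lyl1 had 34.6, 35.5 and 31.1 RPM under DMSO and 39.1, 19.6 and 32.3 RPM under YH250. Lyl1 was close to even in 5 libraries and low in YH250 2, the library with the high stromal transcripts, whose part in this value was not tested. Means of Lyl1 were 33.7 ± 2.28 and 30.3 ± 9.93 RPM, and the log2 difference was -0.20 ± 0.30 (95% interval -0.88 to 0.48), and without YH250 2 it was 0.08. The interval of Lyl1 with the block was -0.78 to 0.38.

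The adaptor Lmo2 had 728, 890 and 549 RPM under DMSO and 550, 744 and 317 RPM under YH250. At each number the YH250 value was the lower, with log2 differences of -0.40, -0.26 and -0.79, yet YH250 2 exceeded DMSO 1 and DMSO 3. Means were 722 ± 171 RPM and 537 ± 214 RPM, with a log2 difference of -0.48 ± 0.33 (95% interval -1.22 to 0.26), and without YH250 3 it was -0.15. With the replicate number as a block its interval was -0.85 to -0.12, at an unadjusted p of 0.0153 and an adjusted p of 0.66.

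Runx1 had 142, 97.5 and 164 RPM under DMSO and 101, 95.6 and 97.3 RPM under YH250. The 3 YH250 values were nearly equal, whereas those of DMSO were spread, and DMSO 2 was level with YH250. Runx1 averaged 134 ± 33.7 RPM under DMSO and 97.8 ± 2.52 RPM under YH250, a log2 difference of -0.42 ± 0.24 (95% interval -0.98 to 0.13). With the block the interval was -0.83 to -0.01 at an adjusted p of 0.66. Lmo2, Runx1 and Tal1 were the 3 members with a lower YH250 value at all 3 numbers, an arrangement seen in 15% of tested genes, and none was higher at all 3, as 16.1% of genes were. Lmo2 and Runx1 were the 2 members with an unadjusted p under 0.05 and a lower value in the blocked fit, which was so for 2.99% of tested genes. In the blocked fit after rescaling to the gene sum or after quantile normalization, Tal1 and Fli1 joined them, making 4 of 7 members, against 4.78% and 3.82% of genes. Both of these fits were not planned and were added after the data had been seen. The smallest adjusted p of a member in these fits was 0.635 and 0.433.

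The ETS factor Erg had 61.9, 57.3 and 41.4 RPM under DMSO and 69.7, 50.1 and 35.2 RPM under YH250. As for Gata2, the libraries numbered 1 were highest and those numbered 3 lowest in both groups. Means were 53.5 ± 10.8 and 51.7 ± 17.3 RPM, and the log2 difference between treatments was -0.08 ± 0.30 (95% interval -0.77 to 0.60). With the block the interval of Erg was -0.52 to 0.35. The related Fli1 had 140, 125 and 181 RPM under DMSO and 114, 136 and 109 RPM under YH250. Fli1 was highest in DMSO 3 and lowest in YH250 3, so its spread did not follow the numbers. Fli1 averaged 149 ± 29.1 and 119 ± 14.3 RPM, and its log2 difference was -0.31 ± 0.23 (95% interval -0.83 to 0.21). The interval of Fli1 with the block was -0.73 to 0.12.

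**Figure D2:**
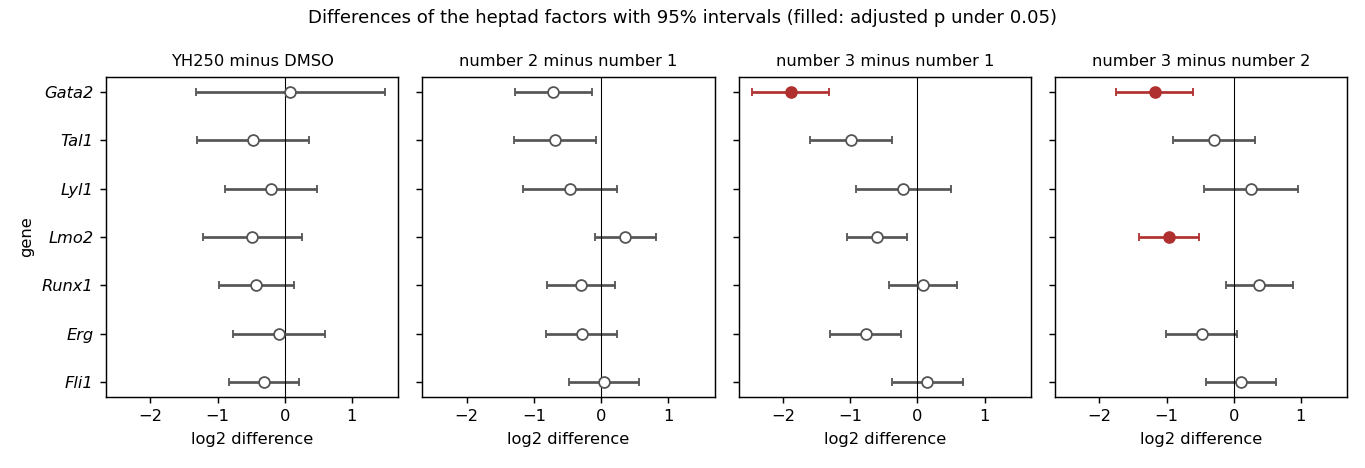
Log2 difference of each heptad factor (horizontal axes, points with 95% intervals from limma) between treatments and between replicate numbers; filled red points have an adjusted p under 0.05. Only Gata2 between numbers 3 and 1, and Gata2 and Lmo2 between numbers 3 and 2, are filled.

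Between replicate numbers, Gata2 differed more than any other member. Both libraries numbered 3 were low against both numbered 1, with a log2 difference of -1.89 ± 0.26 (0.270-fold; limma with treatment as a term, 2 libraries per number, adjusted p = 0.00229). It was also lower in numbers 3 than in numbers 2, with a log2 difference of -1.18 ± 0.26 (adjusted p = 0.029), while the difference between numbers 2 and 1 of -0.71 ± 0.26 did not pass (adjusted p = 0.272). Lmo2 was lower in numbers 3 than in numbers 2, with a log2 difference of -0.96 ± 0.20 (adjusted p = 0.025). Between numbers 3 and 1, 1 of 7 members was called lower and 0 higher, against 2.96% and 5.6% of all tested genes (8.56% in either direction). Between numbers 3 and 2, 2 members were called lower and 0 higher, against 2.64% and 3.67% of genes (6.31% in either direction). Between numbers 2 and 1, 0 members were called, against 0.0221% of genes lower and 0.177% higher (0.199% together), with 2 members, Gata2 and Tal1, under an unadjusted p of 0.05, as 14.3% of genes were.

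No other difference between numbers passed as deposited. Tal1 had a log2 difference of -0.98 ± 0.27 between numbers 3 and 1 (adjusted p = 0.0554), Erg -0.77 ± 0.24 (adjusted p = 0.0776) and Lmo2 -0.60 ± 0.20 (adjusted p = 0.1). Lyl1 (-0.21 ± 0.31), Runx1 (0.08 ± 0.23) and Fli1 (0.15 ± 0.23) had intervals that spanned 0, and Runx1 and Fli1 turned negative under both other scalings. In 5 of the 7 members, all but Runx1 and Fli1, both libraries numbered 3 lay below both numbered 1, an arrangement found in 27.6% of tested genes. Both libraries numbered 3 lay below both numbered 2 for Gata2, Lmo2 and Erg (23.1% of genes), and both numbered 2 below both numbered 1 for Gata2, Tal1, Runx1 and Erg (19.4% of genes). For Lmo2 the gap was slight, 549 RPM in DMSO 3 against 550 RPM in YH250 1.

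How many members were called depended on the scaling. When each library was rescaled to the sum over its genes, the median of all genes between numbers 3 and 1 moved from 0.04 to -0.28, and the split of called genes moved from 761 higher and 403 lower to 465 higher and 891 lower. Gata2, Tal1, Lmo2 and Erg were then called lower, with log2 differences of -2.25, -1.34, -0.96 and -1.13 (adjusted p of 0.00111, 0.0158, 0.0076 and 0.0195), against 6.36% of genes. Quantile normalization, under which that median was -0.06, called the same 4 members (-2.15, -1.12, -1.09 and -0.93), against 4.86% of genes. Gata2 kept its call between numbers 3 and 1 without each library in turn (-2.27 to -1.51), and lost it when no minimum mean was set and 27592 genes were tested (adjusted p = 0.0638). Between numbers 3 and 2, Gata2 and Lmo2 were not called with no minimum mean (adjusted p of 0.191 and 0.135). Gata2 was not called there without YH250 2 (-0.82, adjusted p = 0.0772) or YH250 3 (-0.79, adjusted p = 0.148), and Lmo2 not without YH250 2 (-0.79, adjusted p = 0.174).

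**Figure D3:**
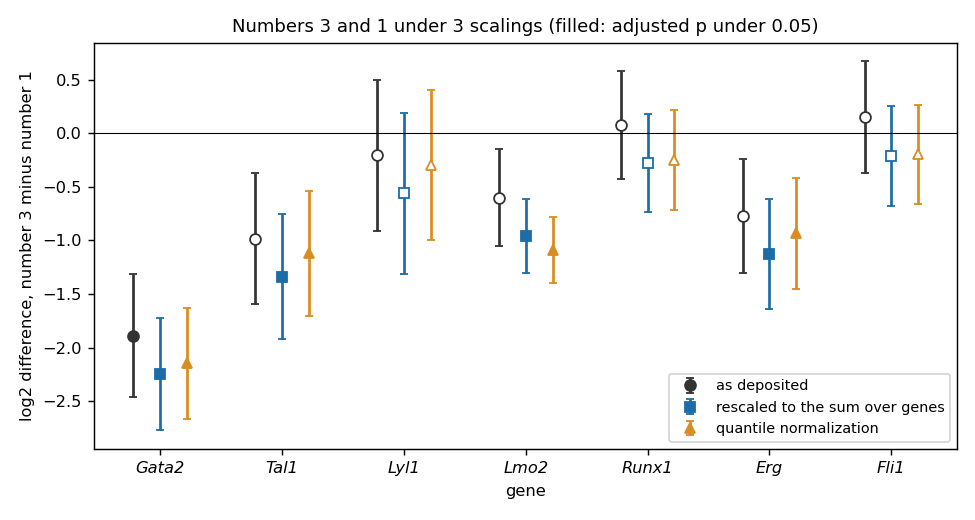
Log2 difference between numbers 3 and 1 (vertical axis, with 95% intervals) for each heptad factor under 3 scalings of the same values; filled symbols have an adjusted p under 0.05. Gata2 is filled under all 3, Tal1, Lmo2 and Erg under the 2 alternative scalings, and Lyl1, Runx1 and Fli1 under none.

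Transcripts listed as markers of other cells differed between the same numbers. The summed level of 12 lymphoid markers was 162.5 to 588 RPM in numbers 1, 678 to 4088 RPM in numbers 2 and 8204 to 17240 RPM in numbers 3. Most of the sum in numbers 3 came from the immunoglobulin gene Ighm, and 9 of the 12 were called higher in numbers 3 than in numbers 1. Over all tested genes 5.6% were called higher and 2.96% lower in that comparison, to which the counts of the other markers refer too. The 16 megakaryocyte and red cell markers summed to 608 to 620, 573 to 636 and 112.5 to 265 RPM, and 6 of 14 tested were called lower in numbers 3 than in numbers 1. Of 10 mast cell and basophil markers, Cpa3 and Mcpt8 were called higher in numbers 3 than in numbers 1, while Cma1 and Tpsb2 were at 0 in all 6 libraries. The sum of this list, at 173 to 318 RPM, was mostly the sort marker Kit. Without Kit it was 0.693 and 4.19 RPM in numbers 1, 2.65 and 13.2 RPM in numbers 2, and 36.1 and 83.8 RPM in numbers 3. Of 10 endothelial markers Tek, Tie1 and Cldn5 were called lower (sums of 264 to 274, 257 to 365 and 199 to 220 RPM), and the defining gene Cdh5 was at 1.04 to 5.69 RPM. The 10 myeloid markers summed to 316 to 438 RPM in numbers 1, 476 to 577 RPM in numbers 2 and 673 to 748 RPM in numbers 3, with 3 called higher in numbers 3. Of 8 stromal markers, summing to 31.7 to 65.8, 49.5 to 299 and 17.2 to 19.0 RPM, Adipoq and Cxcl12 were called lower in numbers 3. Whether these transcripts came from other cells or from the sorted stem cells was not tested, nor was the part of other cells in the values of Gata2 and Lmo2.

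Partners of the heptad in its complexes split between numbers. Of 21 partners, all tested, 0 passed between YH250 and DMSO (median log2 difference -0.17, against 0.02 over all genes). Between numbers 3 and 1, 5 were lower and 2 higher, against 2.96% and 5.6% of all genes. Ldb1, which binds Lmo2 in these complexes, had 103, 81.5 and 53.3 RPM under DMSO and 91.9, 90.6 and 50.4 RPM under YH250. Both libraries numbered 3 were thus lowest (-0.90 ± 0.21, limma adjusted p = 0.0321). Ssbp4, of the family that stabilizes Ldb1, had a log2 difference of -1.58 ± 0.30. Zfpm1, the GATA cofactor FOG1, had a log2 difference of -2.09 ± 0.31, the repressor Gfi1b -1.52 ± 0.34, and the corepressor Runx1t1, at 1.14 to 11.3 RPM, -2.33 ± 0.52. Cbfb, the DNA-binding partner of Runx1, was higher in numbers 3 (0.96 ± 0.22), at 179 and 138 RPM against 91.9 and 69.6 RPM in numbers 1. The E protein gene Tcf4 was higher as well (1.12 ± 0.20), whereas the other E protein genes, Tcf3 and Tcf12, did not pass. The most abundant partner, Cbfa2t3, a corepressor of Tal1 complexes, was at 128 to 209 RPM and did not pass. The median of the partners was 0.04 as deposited, -0.32 after rescaling to the gene sum and -0.22 after quantile normalization. Over all genes it was 0.04, -0.28 and -0.06 in the same order, so as deposited and after rescaling the partners were near all genes. Without DMSO 3, and with no minimum mean, 0 partners were called, and Cbfb was not called under either other scaling.

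Genes listed as reported targets of heptad members included many with lower levels in numbers 3. This list, like the other lists, was chosen with earlier results of these data known, so its counts are a description. Of 25 such genes, all tested, 12 were called lower and 1 higher than in numbers 1 (2.96% and 5.6% of all genes), with a median log2 difference of -1.15 against 0.04 over all genes; between YH250 and DMSO 0 passed. The adhesion receptor gene Adgrg1 had 577, 458 and 259 RPM under DMSO and 496, 572 and 223 RPM under YH250, a log2 difference of -1.15 ± 0.21 between numbers 3 and 1. Procr, which encodes the stem cell surface protein EPCR, had a log2 difference of -2.19 ± 0.32, the angiopoietin receptor Tek -2.50 ± 0.39, and the stem cell factor Meis1 -1.29 ± 0.19. Nfe2, Zfpm1, Gfi1b, Epor, Eng, Itga2b and Angpt1 were also called lower. Cd34 was the one called higher, with 158 and 168 RPM in numbers 1, 505 and 501 RPM in numbers 2 and 402 and 416 RPM in numbers 3 (1.33 ± 0.18). The sort marker Kit, with 318, 265 and 213 RPM under DMSO and 218, 160 and 130 RPM under YH250, did not pass in any of the 4 comparisons. Itga2b, Epor, Gfi1b and Pf4 are among those that also stand in the megakaryocyte and red cell list, and Tek in the endothelial list. Gfi1b and Zfpm1 are counted among the lower partners too, and Meis1 and Nfe2 among the lower genes of the other stem cell factors described below. Without DMSO 3, 8 targets were called lower, and with no minimum mean 2.

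**Figure D4:**
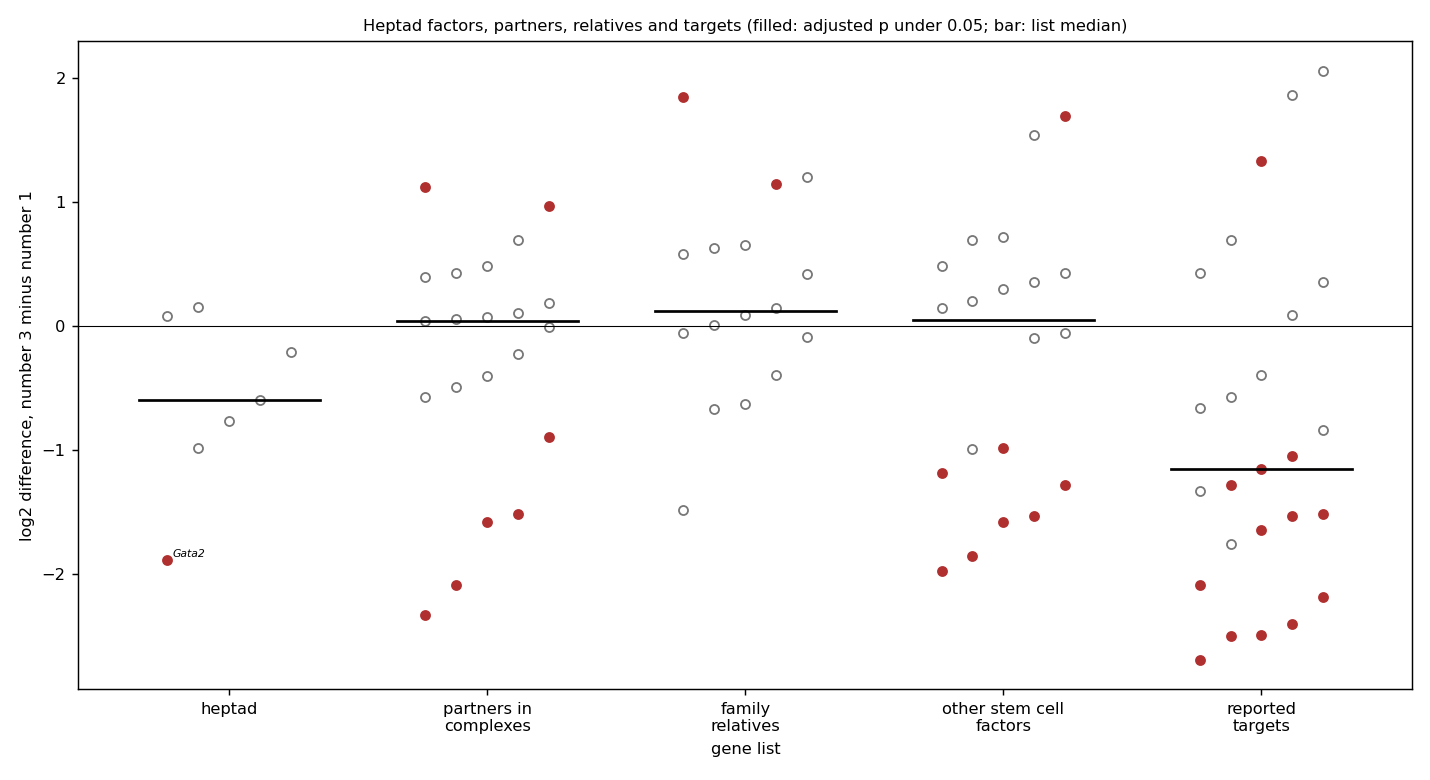
Log2 difference between numbers 3 and 1 (vertical axis) of each tested gene in 5 lists (horizontal axis); filled red points have an adjusted p under 0.05 and bars are list medians. Of the reported targets 12 lie below 0 and 1 above among the filled points, whereas the partners hold 5 below and 2 above. Gfi1b and Zfpm1 are counted in both lists. All lists were chosen with earlier results of these data known.

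Profiles of log2(RPM + 1), each centred on its mean, were compared by their root mean square difference. Runx1 and Fli1 were the closest pair (0.16), with Fli1 in place 73 among all tested genes by nearness to Runx1, and both were highest in DMSO 3. Tal1 and Erg came next (0.28). Gata2 was 0.51 from Tal1 and from Erg, which held places 591 and 593 by nearness to it, and 0.89 from Runx1. For each of the other 6 members Gata2 was the most distant of the heptad. The measure counts the size of changes as well as their direction, and Gata2 had the largest spread about its own mean (0.81, Tal1 next at 0.50). A large distance from Gata2 thus does not mean another order of libraries. The named genes nearest to Gata2 were Ppic (0.0954), Kcnk5 (0.13) and H1fx (0.15), and those nearest to Lmo2 were Mettl7a1 (0.069), Glb1l (0.0886) and Slc9a8 (0.0949). Near to Tal1 were Ninl and Dstn, and nearest to Lyl1 were Iars, Man1c1 and Homer1, to Runx1 Slc23a2, Dnajb14 and Cramp1l, to Erg Cant1, Gsk3a and Treml2, and to Fli1 Herpud2, Cpne5 and Calb1. With 6 libraries and 13597 genes, near profiles are found for any gene, so these names are a description. The spread of a profile about its own mean was 0.81 for Gata2, larger than in 86.6% of tested genes, and 0.24 for Fli1, larger than in 16.2% of them.

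Within a library, the balance between members differed by number. The log2 ratio of Gata2 to Runx1, which does not depend on how a library was scaled apart from the pseudocount, was 0.16 and 0.77 in DMSO 1 and YH250 1, -0.24 and 0.35 in DMSO 2 and YH250 2, and -1.66 and -1.35 in DMSO 3 and YH250 3. The ratio of Erg to Fli1 was -1.17 and -0.70 in numbers 1 and -2.10 and -1.60 in numbers 3. Both ratios were thus lowest in the 2 libraries numbered 3. The ratio of Lmo2 to Tal1 was 4.56 and 4.55 in numbers 2, above the 3.45 to 3.93 of the other 4 libraries. The ratio of Tal1 to Lyl1 showed no such order, from -0.68 in YH250 3 to 0.79 in DMSO 1.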

How the data were processed

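The deposited table holds 1 normalized signal per gene and library, made by the authors, with a lowest value of exactly 1. Its unit is not stated. The excess over 1 lies on multiples of a small step per library, so values were read as RPM plus an offset of 1, which was subtracted. Of values under about 20 reads, 61.1% to 68.4% came within 0.1 of whole reads, so no count model was used. Per the submitters' processing notes, Partek, TopHat2 2.0.8, CASAVA 1.8.2 and mm10 were used, in roles not stated; annotation and counting are not given in the sources used here. Symbols matched for 40254 of 41128 genes.

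Genes averaging 1 RPM or more (13597) were fitted on log2(RPM + 1) by limma 3.58.1 under R 4.3.3 (trend and robust). Benjamini-Hochberg adjustment ran over all of them at 0.05. The fit was tested on simulated data. Simulated treatment changes were drawn without differences between numbers, so that test does not give the power of the fit in these libraries. YH250 minus DMSO used 3 against 3 libraries, and numbers were compared with treatment as a term. A fold on this scale understates changes of low genes. Members and gene lists were chosen with earlier results of these data known. All members are given, with the called and most abundant list genes that bear on them and the 3 nearest named profiles, except a few genes not reported here. Libraries of the same number correlated in their deviations from group means at 0.55, 0.26 and 0.70 for numbers 1, 2 and 3, all above 0.1, the limit set for pairing. Unlike numbers reached 0.14 (DMSO 2 with YH250 1) and 0.11 (DMSO 1 with YH250 2). The values given are from the fit without the number unless the replicate block is named. Alternatives covered pseudocount, minimum mean, scaling, weights, block and left-out libraries. The fits that joined the block with another scaling were added after the data had been seen.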

Additional observations from a re-analysis of the deposited data

How the results depend on the processing

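Between YH250 and DMSO 0 genes were called under all 19 alternatives run, with the replicate block included, and no member was called. As each number holds a library of each treatment, the replicate block cannot change a log2 difference (Gata2 0.08, Lmo2 -0.48). The block changed the SE, from 0.61 to 0.21 for Gata2 and from 0.33 to 0.16 for Lmo2, but no call. Signs of uncalled differences turned for Gata2 (-0.30 without DMSO 3, -0.36 without YH250 1, -0.11 without YH250 2, -0.15 without both libraries numbered 2, and -0.01 after rescaling to the gene sum with or without the replicate block), Lyl1 (0.08 without YH250 2, 0.11 without both libraries numbered 2) and Erg (0.03 without DMSO 1, 0.16 without YH250 3). Without each library in turn these 3 ranged from -0.36 to 0.72, from -0.41 to 0.08 and from -0.32 to 0.16.

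Between numbers 3 and 1, signs turned for Runx1 (-0.28 rescaled, -0.25 quantile, -0.16 without DMSO 3), Fli1 (-0.21, -0.20 and -0.17) and Lyl1 (0.07 without YH250 1), with ranges without each library of -0.16 to 0.32, -0.17 to 0.47 and -0.49 to 0.07. Between numbers 2 and 1 they turned for Fli1 (-0.08 rescaled, -0.12 quantile, -0.28 without YH250 2) and Lyl1 (0.00 without YH250 2), with ranges of -0.28 to 0.36 and -0.93 to 0.00. Between numbers 3 and 2 they turned for Fli1 (-0.13 rescaled, -0.08 quantile, -0.21 without DMSO 2 or DMSO 3), Lyl1 (-0.21 without YH250 2) and Tal1 (0.00 without YH250 3), with ranges of -0.21 to 0.43, -0.21 to 0.73 and -0.60 to 0.00. Genes called with no minimum mean were 180, 0 and 42 for numbers 3 minus 1, 2 minus 1 and 3 minus 2, against 1164, 27 and 858. For numbers 2 minus 1 they were 75 with a minimum mean of 5 RPM and 46 after quantile normalization. Without each library in turn the counts ranged from 417 to 3010, from 39 to 1764 and from 250 to 3137, with the lone library of a number assumed to vary like the rest; the cause was not tested. Tal1 and Erg were called lower in numbers 3 than in numbers 1 without DMSO 2 or YH250 2, Tal1 also with a minimum mean of 5 RPM, and Lmo2 without DMSO 3. The lowest member value rested on 475 reads.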

Other observations

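Relatives of the heptad factors had other patterns. Of 22 family members, 16 were tested, 0 passed between YH250 and DMSO, and between numbers 3 and 1, 2 were called higher and none lower (5.6% and 2.96% of all genes). Ets1, an ETS factor of lymphoid cells, was at 17.7 and 22.3 RPM in numbers 1, 18.7 and 30.8 RPM in numbers 2 and 71.5 and 77.1 RPM in numbers 3 (1.85 ± 0.27 on the log2 scale, limma adjusted p = 0.00361). Runx2, a relative of Runx1, was at 73.4 and 57.3 RPM in numbers 1 and 168 and 124 RPM in numbers 3 (1.15 ± 0.21, adjusted p = 0.0102). Without DMSO 3, 0 relatives were called. Gata1, the GATA factor of red cells and megakaryocytes, named after its values were seen, was at 0.334 to 11.7 RPM and did not pass.

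Of 20 other stem cell transcription factors, all tested, 7 were called lower and 1 higher in numbers 3 than in numbers 1, against 2.96% and 5.6% of all genes, and 0 passed between treatments. With no minimum mean 3 were called lower and 0 higher. Mycn was at 148 and 100 RPM in numbers 1 and 51.2 and 20.9 RPM in numbers 3 (-1.86 ± 0.30, adjusted p = 0.00616). Ikzf1, the lymphoid factor Ikaros, was the one called higher, at 89.5 and 59.9 RPM against 287 and 199 RPM (1.69 ± 0.23, adjusted p = 0.00228).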
